A study of Mus musculus with 30 samples.

Results

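The genes described here are 8 genes of myelin, Mbp, Mobp, Mog, Mag, Cnp, Cldn11, Mal and Ugt8a, out of 27764 gene names on the array. They were chosen by name, and all 17 of the array's 41174 probes that carry these names were taken, with the eye arrays matched by probe. RNA came from the whole eye and from a hypothalamic block of Per3-/- mice and of their wild-type (WT) littermates on a C57Bl/6J background. Per3-/- mice lack functional protein of the circadian gene Period3 (Per3), but per the paper still make a longer Per3 mRNA at a reduced level. All mice were adult males, were kept under 17 cycles of 3.5 h of light and 3.5 h of darkness, and were killed during light in the last cycle. The hypothalamic block was measured in 8 WT and 8 Per3-/- mice and the eye in 7 of each, each tissue of each mouse on an array of its own without pooling. Arrays from the eye of WT mouse 2 and of Per3-/- mouse 1 were not analysed here.

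Both tissues have limits as a view of myelin. The hypothalamic block was cut around the optic chiasm and holds the suprachiasmatic nucleus, so it contains a myelinated tract beside nerve cell bodies. No optic nerve was dissected on its own: the eye tissue is the whole eye, and how much nerve stayed on each eye is not given in the sources used here. In bulk tissue, fewer cells of a type and less RNA per cell cannot be told apart.

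Myelin is the stack of glial membrane that wraps axons and speeds conduction, and in the central nervous system oligodendrocytes make it. Axons of mouse retinal ganglion cells run bare through the retina and gain myelin in the optic nerve. Mbp encodes myelin basic protein, which holds the inner faces of the membrane together, and Mobp encodes another basic protein of compact myelin. Mog encodes a glycoprotein on the outermost surface of central myelin and is made by oligodendrocytes. Mag encodes an adhesion protein on the membrane that faces the axon, and Cnp an enzyme of the uncompacted layers. Schwann cells, which myelinate peripheral nerves, make both, and whether they make the other members was not analysed here. Cldn11 encodes the claudin of the tight junctions between layers, Mal a small proteolipid that many epithelia also make, and Ugt8a the enzyme that makes the galactolipids of myelin.

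A level is the log2 signal of a probe relative to the 75th percentile of its array, so that 0 is that percentile. Of the probes of a gene, the one reported had the highest mean signal, with preference for probes well above background on every array. The reported probes lie, on assembly mm9, at chr18:82754755-82754814 (Mbp), chr9:120090501-120090560 (Mobp), chr17:37157407-37157466 (Mog), chr7:31684231-31684290 (Mag), chr11:100442617-100442676 (Cnp), chr3:31062922-31062981 (Cldn11), chr2:127458948-127458975 (Mal) and chr3:125568995-125569054 (Ugt8a). Which exon or untranslated part each one reads was not analysed here. Of the 8, the Mog probe alone missed the mark of being well above background on some arrays, namely in 2 of the 7 WT and 3 of the 7 Per3-/- eyes.

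The tissues carried the markers of their labels. All 5 photoreceptor genes were higher in the eye, with a median difference of 11.22 on the log2 scale. Of 6 hypothalamic genes, 4 passed the test as lower in the eye, 1 as higher and 1 did not pass. Each array had 67.9% to 80.7% of its probes well above background. The single Per3 probe was lower in Per3-/- than in WT mice by 0.51 on the log2 scale in the hypothalamus and by 0.45 in the eye, with adjusted p = 0.067 and 1.0 (limma), and 7 of 8 and 4 of 7 Per3-/- mice lay below every WT mouse.

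The proximal promoters are shown because 7 of the 8 genes moved together between eyes and Mal did not, which the values further on describe. RefSeq windows on GRCm38.p6, a later assembly than that of the probe positions, were at hand for 7 of the 8 genes. Each holds the 250 bases before the start site, and there were 3 for Mag and none for Mbp. They were searched on both strands for ACAAAG, a core of SOX factor sites, for CTGGCAC and CTGGTAC, which resemble sites of the myelin regulatory factor MYRF, and for the E-box CAGCTG. These letters stand in 16.5%, 4.19%, 1.83% and 13% of all 32851 promoter windows of that length. Matches were found in 4 of the 7 genes, and the share of all windows that hold any of these letters was not counted. Capitals mark the matches in the stretches of 30 bases below, and CTTTGT and GTACCAG are ACAAAG and CTGGTAC read on the other strand.
Mobp, chr9:120149498-120149527, + strand: tCTTTGTtcccatCTTTGTtggcCTTTGTt
Mog, chr17:37023463-37023492, - strand: agaaatgcccaGTACCAGgcagccactgct
Mag, chr7:30914913-30914942, - strand: gcaggcggcccCTGGCACccagggggcaga
Cnp, chr11:100574847-100574876, + strand: accgctgcttcCTGGCACtcaggtttccat
The Mobp window held 6 matches to ACAAAG, 3 of them in the stretch shown, and Mag and Cnp each held 1 such match besides the one printed. The windows of Cldn11, Mal and Ugt8a and the third Mag window held none of these letters, and no window held CAGCTG. A match is a stretch of letters and not a shown binding site, and the genes without a match include both Cldn11 and Ugt8a, which varied with Mog, and Mal.

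The most visible feature of these genes was how far the eyes of single mice lay apart. In the eye, the level of Mbp ran from 2.02 over a median of 3.54 to 5.49 in WT mice and from 0.92 over 2.89 to 4.83 in Per3-/- mice. The lowest and the highest eye, of Per3-/- mouse 2 and WT mouse 1, were 23.7-fold apart and lay on the same slide. In the hypothalamic block Mbp ran from 6.67 over 6.86 to 7.14 in WT and from 6.54 over 6.88 to 7.0 in Per3-/- mice, a range of 1.51-fold over all 16.

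Mobp in the eye ran from -1.96 over -0.58 to 1.66 in WT and from -3.12 over -0.94 to 0.93 in Per3-/- mice, a range of 27.5-fold. In the block it stayed between 3.57 and 4.03 in all mice. WT mouse 1 had the highest eye and Per3-/- mouse 2 the lowest eye for this gene too, and the genotypes overlapped.

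Mog in the eye ran from -7.23 over -4.82 to -2.68 in WT and from -7.74 over -5.31 to -3.21 in Per3-/- mice. The 4 lowest eyes of that 33.2-fold range, and Per3-/- mouse 6 at -5.31, were not well above background, so the low end is near background signal. In the block, Mog ran from -0.07 to 0.25 in WT and from -0.59 to 0.15 in Per3-/- mice, with Per3-/- mouse 7 the lowest.

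Cldn11 in the eye ran from -3.31 over -1.92 to 0.07 in WT and from -3.88 over -2.51 to -0.88 in Per3-/- mice. Ugt8a ran from -4.74 over -3.53 to -1.90 and from -4.99 over -3.96 to -2.24. For both the highest eyes were those of WT mouse 1 and Per3-/- mouse 8 in their genotypes, as for Mbp, Mobp and Mog.

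Cnp and Mag covered less ground. Cnp in the eye ran from -0.05 over 0.63 to 1.86 in WT and from -0.18 over 0.53 to 1.36 in Per3-/- mice. Mag ran from 1.45 over 1.67 to 2.74 and from 1.53 over 1.96 to 2.43. Mal was nearly level, from 2.45 over 2.69 to 3.02 in WT eyes and from 2.55 over 2.92 to 3.08 in Per3-/- eyes, and its hypothalamic values of 2.39 to 2.98 fell in the same band.

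**Figure D1:**
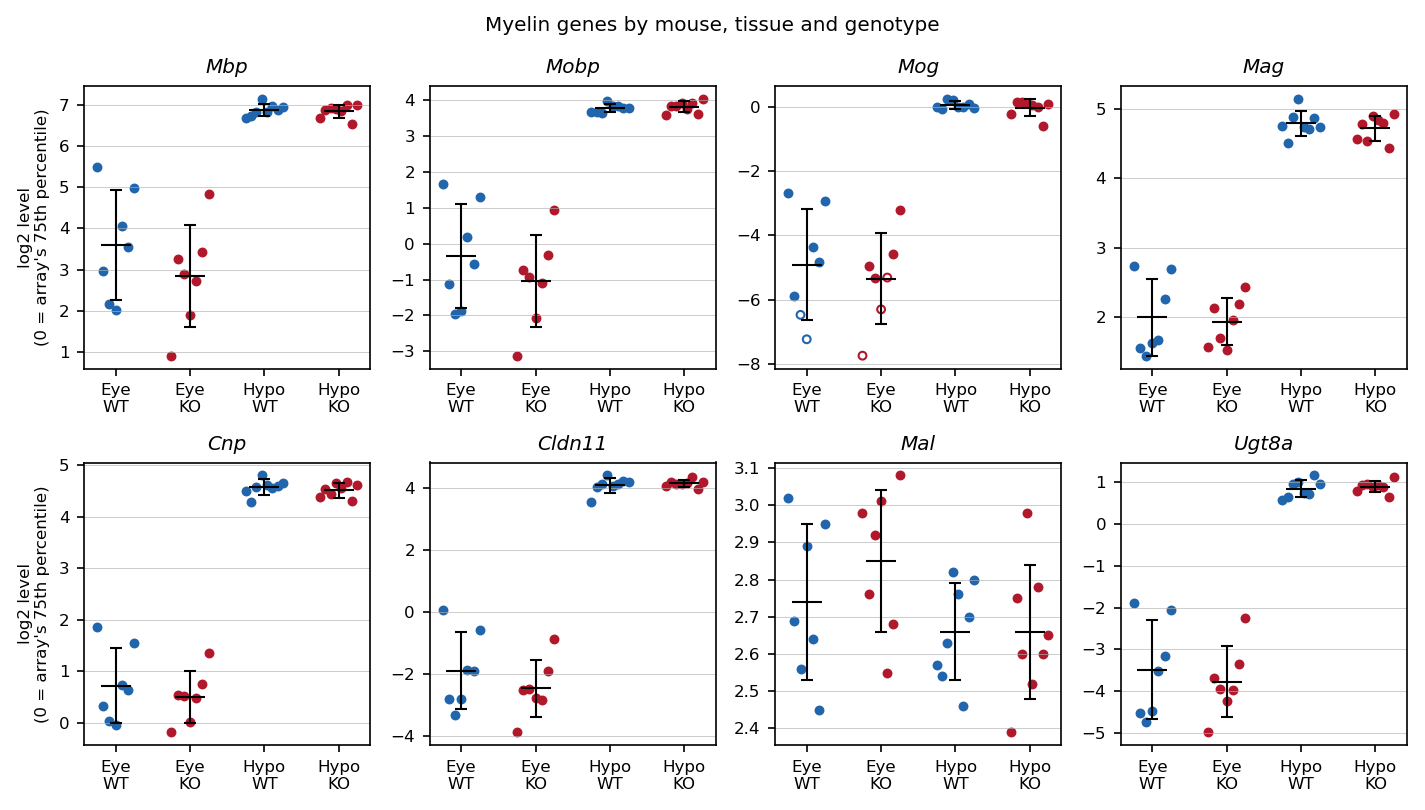
Level of each gene (log2 signal relative to the array's 75th percentile, vertical axis, own scale per panel) in every mouse by tissue and genotype (KO is Per3-/-; n = 7 per genotype in the eye and 8 in the hypothalamic block), with the mean and SD as black bars and open circles where the probe was not well above background. The eye values of Mbp run from 0.92 to 5.49 and those of the block from 6.54 to 7.14, whereas the Mal values of both tissues share 1 band.

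The level differed between the tissues for the same genes that varied. In limma over all probes, 7 of the 8 genes were lower in the eye, against 35.1% of all 41174 probes. Each of the 14 eyes lay below each of the 16 blocks for these 7 genes. The share of all probes with such a full separation was not counted, so it is not a trait shown to be particular to them. On the log2 scale the difference (eye minus hypothalamus) was -6.30 for Cldn11 (standard error 0.27), -5.14 for Mog (0.38), -4.51 for Ugt8a (0.25), -4.48 for Mobp (0.33), -3.93 for Cnp (0.16), -3.63 for Mbp (0.31) and -2.79 for Mag (0.12). Their adjusted p-values lay between 6.48e-20 and 7.88e-12. Cldn11 signal was thus 78.8-fold and Mag signal 6.90-fold higher in the block, and the value for Mog includes the 5 eyes near background. Over all probes the median difference was 0.20 and 19552 of 33994 called probes were higher in the eye, against -0.07 and 15497 of 33407 after quantile normalization. Slide and tissue cannot be told apart, since no slide held both tissues.

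Mal did not follow. Its reported probe differed by 0.14 (standard error 0.07, adjusted p = 0.0575, limma), and its second probe was higher in the eye, with a mean of 3.48 against 2.01. Under quantile normalization the reported probe was higher in the eye as well, by 0.30 (adjusted p = 0.000157).

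Other genes of the oligodendrocyte lineage were mostly lower in the eye too. Of 19 further genes for myelin proteins and enzymes, 17 were lower and 1, the transferrin gene Trf, was higher. Among them were Fa2h (-5.82), which encodes the enzyme that hydroxylates the fatty acids of myelin lipids, Opalin (-6.77) and Hapln2 (-4.73). Opalin was well above background in only 7 and Hapln2 in 11 of the 14 eyes, so their eye values are in part near background, here and in what follows. Of 7 oligodendrocyte transcription factors, 6 were lower, with Olig1 at -6.83 and Olig2 at -5.61, and Myrf was higher by 1.42. All 6 precursor genes were lower, with Gpr17 at -7.33. Of 10 Schwann cell genes, 5 were higher in the eye and 2 lower, where 19552 of all 41174 probes were higher. Dhh at 4.96 and Pmp22 at 1.42 were among the higher ones, and Drp2 at -2.38 was among the lower. The 5 include Pmp2 (0.68), whose probe was well above background on no array of either tissue. Of 11 sterol synthesis genes 5 were higher and 3 lower, and of 9 genes for axonal partners of myelin 7 were lower, with Kcna2 at -4.63. After quantile normalization 4 Schwann cell genes were higher and 3 lower.

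To compare the spread between mice, each value was taken as its distance from the mean of its tissue and genotype. The standard deviation within genotype was 1.58 in the eye against 0.20 in the block for Mog, 1.37 against 0.14 for Mobp and 1.28 against 0.15 for Mbp. It was 1.09 against 0.19 for Cldn11 and 1.03 against 0.17 for Ugt8a. Cnp had 0.63 against 0.14, Mag 0.46 against 0.18, and Mal 0.20 against 0.16. The ratio of eye to block was therefore between 2.51 (Mag) and 10 (Mobp) for 7 genes and 1.29 for Mal, while the median probe of the array had 0.27 in the eye and 0.20 in the block.

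In limma on these distances, 7 of the 8 genes had a larger spread in the eye, against 20.0% of all probes. The mean distance was larger by 1.11 for Mog (standard error 0.24, adjusted p = 0.00185), by 1.02 for Mobp (0.20, 0.000823), by 0.92 for Mbp (0.19, 0.00164), by 0.72 for Cldn11 (0.18, 0.00579) and by 0.69 for Ugt8a (0.15, 0.00182). It was larger by 0.37 for Cnp (0.10, 0.0099) and by 0.26 for Mag (0.05, 0.0011), but by 0.05 for Mal (0.03, 0.259), which did not pass. Eye and block arrays of the same genotype and number were taken as 1 mouse, which the labels do not state. Over the 14 mice so paired, an exact sign-flip permutation test (two-sided, smallest p 0.000122) gave p = 0.000488 for both Mbp and Mobp and p = 0.113 for Mal. The eye value was farther from its mean than the block value in 10 to 13 of the 14 mice for the 7 genes and in 12 for Mal. With slide means taken out, Mag no longer passed (adjusted p = 0.126), nor with distances from medians (adjusted p = 0.125), and the other 6 did.

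**Figure D2:**
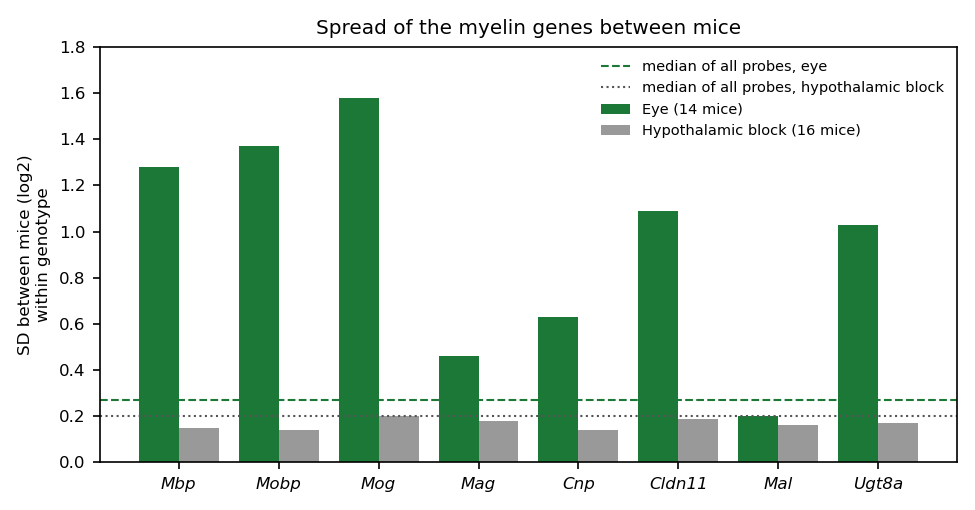
Standard deviation between mice within genotype (log2, vertical axis from 0) of each gene in the eye (green, 14 mice) and the hypothalamic block (grey, 16 mice), with the medians of all probes as dashed and dotted lines. The eye bars of 7 genes stand between 0.46 and 1.58, above the median line of 0.27, and that of Mal at 0.20 below it.

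The same test called 8 of the 19 further myelin genes as more spread in the eye, among them Opalin (1.08), Hapln2 (0.84) and Fa2h (0.64), and 1, Enpp2 (-0.58), as less spread. Of the transcription factors 5 of 7 were more spread, with Olig1 at 1.03, and of the precursor genes 3 of 6, with Gpr17 at 0.94. Among those counted, Nkx2-2 was well above background in 6, Olig2 in 11 and Enpp6 in 3 of the 14 eyes. Their eye values are thus in part near background, also above and in what follows. Of the 10 Schwann cell genes none was more spread and 1 less, Dhh at -0.30, and none of the 11 sterol synthesis genes passed, but after quantile normalization 4 and 2 were more spread. The count of further myelin genes was between 5 and 11 under other scalings, and that of transcription factors 3 with normexp background. Of 9 axonal partners 3 were more spread, Cntnap1 by 0.30. Of other cell types in the eye, 4 of 6 skeletal muscle genes, 3 of 6 of the ocular surface, 2 of 6 of astrocytes and 1 of 8 of retinal ganglion cells were more spread, the last being Pou4f2, whose probe was well above background in 8 of 14 eyes and in none of the 16 blocks. Photoreceptor genes were less spread in the eye in 3 of 5 cases, and those of meninges and choroid plexus in 4 of 5.

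The eyes of single mice kept nearly the same order from gene to gene. Across the 14 eyes, each value taken from its genotype mean, the 21 pairs formed by the 7 genes other than Mal had Pearson correlations between 0.86 and 1.0 (median 0.96). The 7 pairs with Mal had 0.21 to 0.43. All these values share their arrays, so the pairs are not independent of each other.

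Mog served as the reference in a limma fit with genotype as a second term. In the eye 6 of the other 7 genes rose with it, against 0.124% of the 41173 probes tested. Per unit of Mog on the log2 scale, Mobp changed by 0.86 (standard error 0.04), Mbp by 0.81 (0.03), Cldn11 by 0.66 (0.06), Ugt8a by 0.62 (0.05), Cnp by 0.39 (0.03) and Mag by 0.25 (0.04). The adjusted p was 1.32e-07 for Mbp, 1.64e-07 for Mobp and 0.0402 for Mag. Mal changed by 0.03 (0.04, adjusted p = 0.727).

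As correlations, 7 relations were computed per tissue, with p from 100000 permutations within genotype. Mbp had r = 0.99 and rho = 0.98, Mobp 0.99 and 0.97, and Cnp 0.97 and 0.94, each with a permutation p of 1e-05, the smallest they can give. Cldn11 had r = 0.95 and rho = 0.94, and Ugt8a 0.96 and 0.96, with permutation p of 3e-05 and 2e-05 for r. Mag had r = 0.87 (permutation p = 0.00015) and rho = 0.86 (permutation p = 0.00036). Mal had r = 0.21 (permutation p = 0.488) and rho = 0.27 (permutation p = 0.376).

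For the 6 genes these relations did not rest on the extreme eyes. Without the 2 mice farthest from the median of Mog, WT mouse 1 and Per3-/- mouse 2, r was 0.99 for Mbp, 0.98 for Mobp and Cnp, 0.94 for Cldn11, 0.95 for Ugt8a and 0.85 for Mag. In 3 eyes Mog lay over 1 above its genotype mean, apart from the others. Over the 11 remaining eyes, a restriction chosen after the values were seen, r was 0.99 for Mbp, 0.98 for Mobp and 0.69 for Mag, and -0.59 for Mal. Within WT mice alone Mbp had r = 0.99 (exact permutation p = 0.000198, n = 7) and within Per3-/- mice 1.0 (exact permutation p = 0.000397, n = 7). With slide taken out, r was 0.99 for Mbp and Mobp and 0.85 for Mag. Because Mog was near background in 5 eyes, the fit was repeated after the data were seen with Cnp as the reference, and the 6 genes other than Mal passed.

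Only Mag sat near the threshold. Leaving out 1 eye at a time moved it past an adjusted p of 0.05 in 12 of 14 cases, and it did not pass with slide in the fit (adjusted p = 0.379) or after quantile normalization (adjusted p = 0.269). Its slope stayed between 0.23 and 0.28 when 1 eye was left out.

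**Figure D3:**
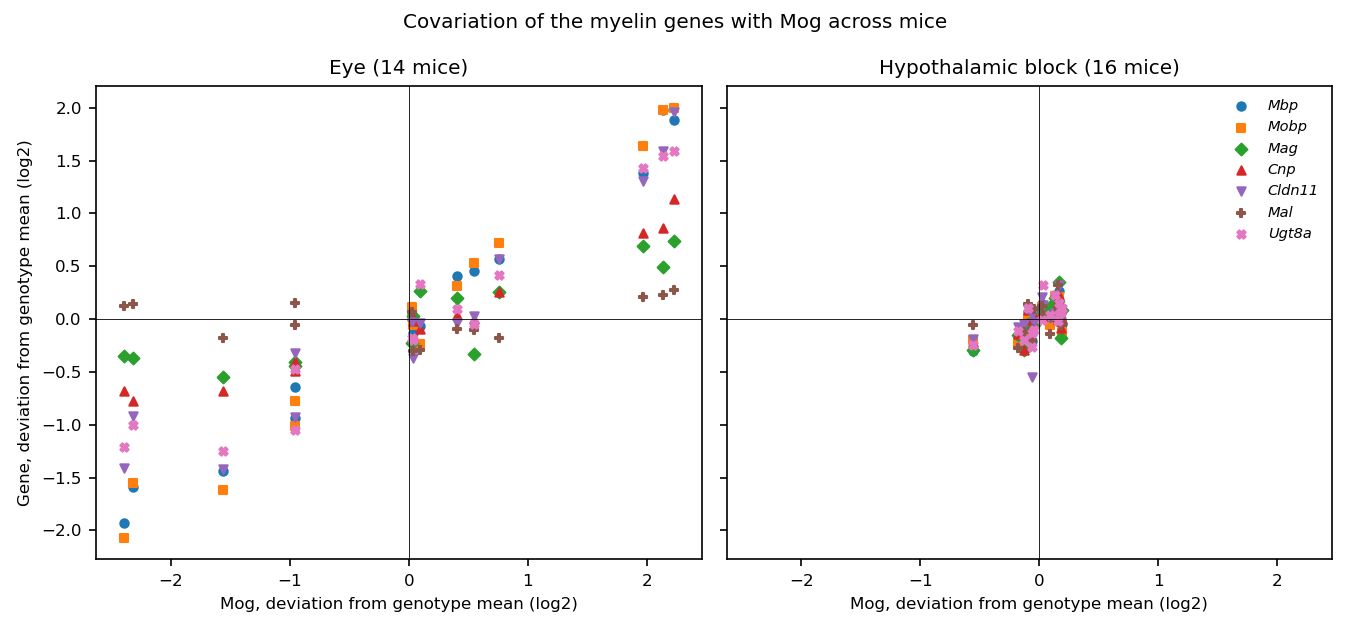
Deviation of 7 genes from their genotype mean (log2, vertical axis) against that of Mog (log2, horizontal axis), 1 point per gene and mouse, in the eye (left, 14 mice) and the hypothalamic block (right, 16 mice) on the same scales. In the eye 6 genes rise with Mog, with r from 0.87 to 0.99, and Mal stays near 0 (r = 0.21); in the block all points lie close to 0.

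The other probes of these genes add to the picture. Mbp has 3 probes: the one at chr18:82742266-82744570, which spans 2305 bases and so crosses an intron, had r = 0.99 with Mog in the eye, like the reported one. The third, at chr18:82727929-82727988, the lowest position of the 3 on the + strand, had r = -0.05, a mean of 3.12 in the eye and 2.68 in the block, and a standard deviation of 0.22 in the eye. The Mbp locus is known to make golli transcripts from an upstream start, also in cells other than oligodendrocytes. The array's annotation assigns this probe to another Mbp transcript than the other probes, and whether that is a golli transcript was not analysed here. All 3 Mobp probes rose with Mog, at r = 0.99, 0.99 and 0.88. The second Mag probe had r = 0.83 and did not pass (adjusted p = 0.138, limma). Of the other Ugt8a probes, one had r = 0.87 and was well above background in 9 of 14 eyes, and the other was above background in none of the 30 arrays. The second Mog probe was well above background in 2 of 14 eyes and had r = -0.09 with the reported one. The second Mal probe was flat as well (r = -0.00).

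Some genes of the same lineage moved with Mog in the eye, while most of those listed did not pass. Of the 19 further myelin genes 6 rose with it, among them Opalin (slope 0.86), Hapln2 (0.76), Fa2h (0.50), Tspan2 (0.35) and Ppp1r14a (0.29). Of the transcription factors 3 of 7 rose, Olig1 (slope 0.85), Nkx6-2 (0.65) and Olig2 (0.48), which specify or mark the lineage. Sox10 (slope 0.12) and Myrf (0.19) were among those that did not pass. Of the precursor genes 2 of 6 rose, Gpr17 (0.83) and Bcas1 (0.40), and 1 after quantile normalization or with slide in the fit. Both genes mark cells that are turning into myelinating oligodendrocytes. The 4 that did not pass had r with Mog of 0.47 (Enpp6), 0.33 (Cspg4), -0.17 (Pdgfra) and -0.63 (Lhfpl3). Which cells of the whole eye these 4 probes read was not tested. None of the 10 Schwann cell genes, 9 axonal partners and 11 sterol synthesis genes passed, and their median slopes were 0.04, 0.05 and 0.01, against 0.02 over all probes.

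Markers of other cells were read beside these. Of 6 astrocyte genes 1 passed, Gfap, the filament protein of fibrous astrocytes, with a slope of 0.46 (adjusted p = 2.39e-05, limma) and r = 0.97, and all 6 were well above background in every eye. Its level ran from -1.65 to 1.39 in the eye, and the summed level of the 6 from 4.88 to 5.45 in WT and from 4.76 to 5.14 in Per3-/- eyes. None of the 6 skeletal muscle genes passed, although all had a positive slope (median 0.19) and r between 0.63 and 0.72 with Mog, and their summed level ran from 7.63 to 8.72 in WT and from 7.92 to 8.94 in Per3-/- eyes. None of the 8 genes of retinal ganglion cells (median slope 0.02), of 5 of photoreceptors (-0.03), of 6 of the ocular surface (0.05), of 5 of meninges and choroid plexus (0.04) and of 6 of the hypothalamus (0.08) passed. Single genes among those that did not pass still had a high r with Mog, as Igf2 of the meninges list (0.86) and S100b of the astrocyte list (0.74). The part of these cells in the covariation was not tested. Array brightness had r = -0.25 with Mog in the eye (permutation p = 0.392) and rho = -0.21 (permutation p = 0.479).

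Among the genes most like the mean of the 8 in the eye were Prr18 (r = 0.99), Nkx6-2 (0.99), Gpr37l1, Gfap, Gatm, Olig1 and Klk6 (each 0.98), and Tspan2 and Gpr17 (each 0.97), over 14 mice and among 27870 probes well above background in every eye. The Gfap probe found here is not the one reported above but a second one for the same gene.

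In the hypothalamic block the range was far narrower. There 0 of the 7 genes passed in the fit against Mog, with 0.253% of all probes called in either direction, 4517 probes at an unadjusted p under 0.05, and adjusted p-values of 0.155 and above for the 7 genes. The slopes were between 0.29 (Mal) and 0.64 (Mag). All 28 pairs of the 8 genes had a positive correlation, from 0.37 to 0.90 with a median of 0.63 across 16 mice. Mbp had r = 0.71 with Mog (permutation p = 0.00436) and rho = 0.47 (permutation p = 0.0775). Without the 2 mice farthest from the median of Mog, Per3-/- mice 7 and 1, r fell to 0.44, so that relation rests on them. Mag had r = 0.71 (permutation p = 0.00119) and rho = 0.63 (permutation p = 0.0141), with 0.61 without those 2 mice. With slide in the fit, 1 gene passed, Ugt8a (slope 0.75, adjusted p = 0.0433). A second probe did pass without that term for Mbp (slope 0.81, adjusted p = 0.0268) and for Mag (0.91, adjusted p = 0.0226), so the call of these genes in the block depends on the probe. Without the slide term no gene of the other lists passed. With it 2 Schwann cell genes passed as falling, and with normexp background 5 of the 19 further myelin genes and 1 transcription factor passed as rising and 1 Schwann cell gene as falling, and after quantile normalization 1 ganglion cell gene as rising. Of the 5 genes of meninges and choroid plexus, 4 had a positive slope (median 0.87), but with slide in the fit 0 had (median -1.46). Array brightness in the block had r = -0.45 with Mbp (permutation p = 0.0887, adjusted over 8 such relations 0.444) and rho = -0.54 (permutation p = 0.041, adjusted 0.328), and r = 0.05 with Mog (permutation p = 0.842). With Cnp as the reference in the block, a choice made after the data were seen, r was between 0.60 (Cldn11) and 0.89 (Mag). Without the 2 mice farthest from the median of Cnp, it was between 0.37 (Mog) and 0.81 (Mag). None of the genes passed in that fit. Whether the slopes differ between the tissues was not tested.

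Among the genes most like the mean of the 8 in the block were Tspan2 (r = 0.94), Dusp15 and Trf (each 0.93), Slc44a1 (0.92), Cryab, Ermn and Plekhg3 (each 0.91), and Rnf130 and Gal3st1 (each 0.90), over 16 mice and 27133 probes. Tspan2 was named for the eye as well.

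**Figure D4:**
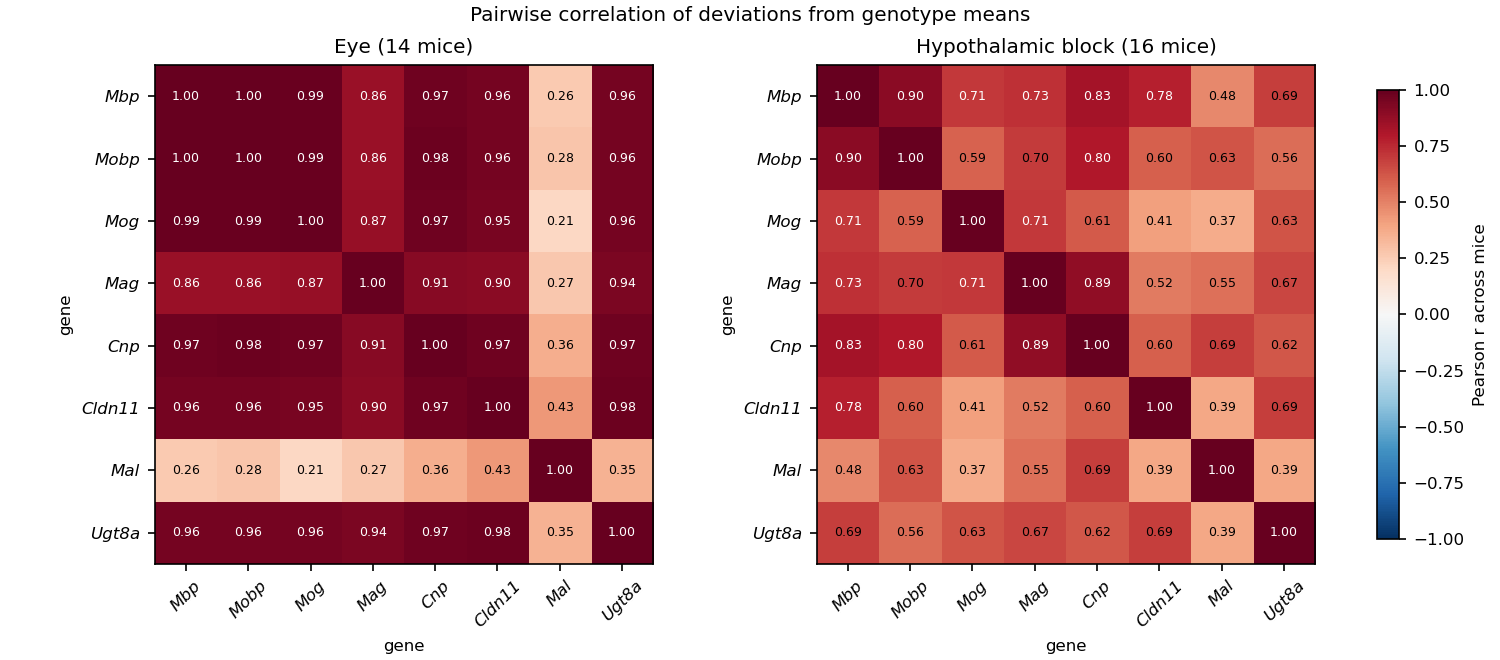
Pearson correlation across mice of each pair of the 8 genes, as deviations from genotype means, in the eye (left, 14 mice) and the hypothalamic block (right, 16 mice), on a colour scale from -1 to 1. In the eye the pairs without Mal have 0.86 to 1.0 and those with Mal 0.21 to 0.43; in the block all pairs lie between 0.37 and 0.90.

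The order of the mice in the eye was not seen in the block. Across the 14 mice paired by number, the correlation of the same gene between eye and block was between -0.57 (Cldn11) and -0.03 (Mal), with 8 relations computed. The permutation p for Cldn11 was 0.0535, or 0.428 adjusted over the 8 (rho = -0.29, permutation p = 0.345), and r was -0.38 without the 2 mice of the most extreme eyes. Mbp had r = -0.17 (permutation p = 0.565) and rho = 0.04 (permutation p = 0.895).

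Genotypes were compared within each tissue, and in the limma fits none of these genes passed in either. The rank products test, which the study used for genotype, was not run here. In the eye 0 of the 8 genes passed, with 0.0194% of all probes called and 743 of 41174 at an unadjusted p under 0.05. The log2 fold change (Per3-/- minus WT) was -0.75 for Mbp (standard error 0.64), -0.71 for Mobp (0.68), -0.58 for Cldn11 (0.55), -0.43 for Mog (0.79), -0.29 for Ugt8a (0.51), -0.23 for Cnp (0.32), -0.07 for Mag (0.23) and 0.11 for Mal (0.11). Every adjusted p was 1.0 (limma), and the two-sided exact permutation p was 0.287 for Mbp and 0.35 for Mobp, over 3432 arrangements. The genotypes overlapped for every gene. The 2 mice on the first slide, WT mouse 1 and Per3-/- mouse 2, differed by -4.57 for Mbp, and the other slides gave 0.51, -0.73 and -0.14. With mice of the same number as a block, where those 2 mice have no partner, the values of Mog, Mag, Cnp and Ugt8a turned positive, at 0.34, 0.12, 0.08 and 0.18, and none passed.

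In the hypothalamic block 0 of the 8 genes passed, with 0.0413% of all probes called and 1161 at an unadjusted p under 0.05. The log2 fold changes lay between -0.09 (Mog, standard error 0.10) and 0.06 (Cldn11, 0.09). The exact permutation p was 0.454 for Mog and 0.593 for Cldn11, and all adjusted p-values were 0.991 or above. The standard errors were 0.07 to 0.10 in the block and 0.11 to 0.79 in the eye. A difference well above its standard error can still fail to pass after adjustment over all probes. The Per3 probe in the hypothalamus differed by -0.51 (standard error 0.09) and did not pass (adjusted p = 0.067, limma). Differences of several standard errors are therefore not excluded for these genes in either tissue.

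Whether genotype acted unequally in eye and block was tested as an interaction, and 0 of the 8 genes passed (0.00486% of all probes called, 797 at an unadjusted p under 0.05). The values ran from -0.75 (Mobp, standard error 0.66) to 0.11 (Mal, 0.13). None of the genes of the other lists passed in any of these comparisons of genotypes. The 19 further myelin genes had a median log2 fold change of -0.09 in the eye and -0.05 in the block, against 0.00 and -0.01 over all probes.

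**Figure D5:**
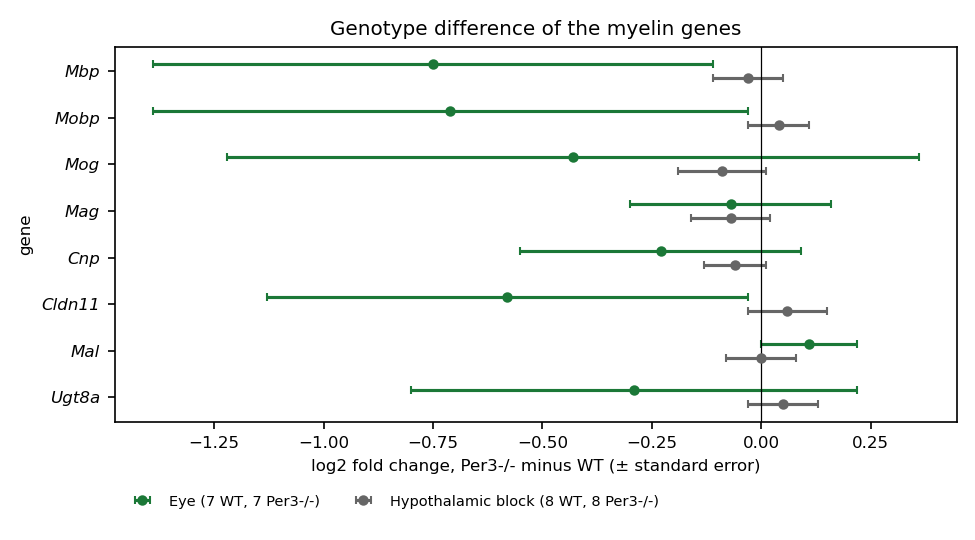
Log2 fold change of each gene (horizontal axis, Per3-/- minus WT) with its standard error in the eye (green, 7 per genotype) and the hypothalamic block (grey, 8 per genotype). The eye values run from -0.75 (Mbp) to 0.11 (Mal) with wide bars, the block values from -0.09 to 0.06 with narrow ones, and none passed the test.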

How the data were processed

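RNA of 30 samples was measured on Agilent 60-mer arrays with 1 label. The authors extracted each spot with Feature Extraction (10.7.1.1 per the file headers), and the deposited intensity is background-subtracted and detrended but not normalized across arrays. A table of log2 values deposited by the authors holds the same signals scaled to the 75th percentile and centred per probe within each tissue, as 99.95% (eye) and 99.99% (hypothalamus) of probes bear out within 0.05. That software also set the deposited spot marks.

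Spots marked uneven or as outliers (36 to 91 an array) were left out, intensities were taken to log2, spots of a probe were averaged, and each array was scaled by its 75th percentile (an intensity of 1131 to 2207). The number of arrays limits the precision. Genotypes, tissues, distances from group means (times the square root of n over n minus 1) and slopes on Mog were fitted with limma 3.58.1 in R 4.3.3 over all 41174 non-control probes, with Benjamini-Hochberg adjustment and a threshold of 0.05. The fits were also run on simulated data with known changes. Permutation tests were two-sided and used Python 3.11.15, numpy 2.4.6 and scipy 1.17.1.

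Every member is named, with up to 4 genes of each list by size of the value (more where all that passed are named), and in each tissue the 10 other genes most correlated with the mean of the 8. The members and lists were chosen with earlier results of these data known. Some genes that this rule would name are not reported here. Zfp488, a listed transcription factor, has no probe under that name and was not analysed here. For naming, 26918 probes matched RefSeq by accession, 5082 by symbol and 817 by synonym, and 8357 kept the name in the files. Positions are those of the hypothalamus files (mm9).

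Mice of the same number in both genotypes shared a slide. Their deviations from the group means correlated at 0.109 to 0.627 over all probes in the 6 pairs of the eye (0.0199 to 0.67 over probes well above background on every array) and at -0.0293 to 0.315 in the 8 pairs of the hypothalamus. Every eye pair is over 0.1 on all probes, so the block is given for the eye; the labels name no pairing. Alternatives were quantile normalization, normexp background correction (offset 50; the eye files give spot medians alone), restriction to probes well above background, the mean of a gene's probes, slide or replicate number as a block, the methods' t-test, the authors' log2 values, each genotype alone, distances from medians, and each mouse left out.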

Additional observations from a re-analysis of the deposited data

Results flagged for a closer look

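In 32 groups of mice (8 genes in 4 groups), 1 value stood apart by its gap to the next, relative to the range of its group, a test that marks about 5% of groups by chance. Cldn11 in the hypothalamic block of WT mouse 1 was 3.54, and the next WT mouse was at 4.04, a gap of 0.571 of the range. The eye of the WT mouse with that number had the highest Cldn11 level. The cause was not tested.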

How the results depend on the processing

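No member passed the genotype test in either tissue, nor the interaction, under any alternative run, and 7 genes were lower in the eye under every one. Quantile normalization, normexp, only probes well above background and the mean of a gene's probes made Mal higher in the eye (0.30, 0.26, 0.14 and 0.80, adjusted p 0.000157, 0.000639, 0.0491 and 6.49e-12). The spread was larger in the eye for 6 or 7 genes under all alternatives and for 7 without any 1 mouse. In the eye, 6 genes passed with Mog, and 5 to 6 without any 1 mouse; with Mog as the mean of its 2 probes 0 passed, as did 0 of all genes, and the second Mog probe is near background in the eye. WT mice alone gave 2, and Per3-/- mice alone 2 (Mbp and Mobp in both), with fewer samples. In the hypothalamus 0 passed, also without any 1 mouse, and 1 with slide in the fit. The replicate block gave 0 called members in both tissues, where all probes called fell from 8 to 1 in the eye and from 17 to 5 in the hypothalamus. It turned the eye values of Mog (0.34), Mag (0.12), Cnp (0.08) and Ugt8a (0.18). The mouse, by number, as a replicate block (correlation 0.059) left 0 for the interaction and 7 for the level. Values of the other sign, all without a call, were Mal in the hypothalamus under quantile normalization (0.00), Mobp, Mal and Ugt8a there with the mean of probes (-0.02, 0.02 and -0.04), the interaction of Mag under quantile normalization and with the mean of probes (-0.01 in both), and the slope of Mal in the eye with the mean of probes (-0.02) and in Per3-/- mice (-0.01). Over all probes, the larger spread was called for 4078 with slide means out and 2328 with distances from medians, against 8234; covariation with Mog in the eye for 0 (mean of probes), 12 (WT) and 11 (Per3-/-), and for 34 without WT mouse 8 or Per3-/- mouse 8, against 54; in the hypothalamus for 481 (normexp), 276 (probes well above background), 247 (slide), 5 (mean of probes) and 0 (each genotype, or Cnp as reference), and between 0 (without Per3-/- mouse 7) and 627 (without Per3-/- mouse 1) with 1 mouse left out, against 104; and the interaction for 1 (quantile, mean of probes) and 6 (normexp), against 2. The causes were not tested. Signal over background limits Mog, near background in 5 of 14 eyes.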
